A study of Arabidopsis thaliana with 44 samples.

Results

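The regions described here carried both H3K27me3 and the histone variant H2A.Z in Arabidopsis thaliana shoots. They were taken from the H3K27me3 regions of the pkl-1 replicate 2 table. A region was a member when it was shorter than 8000 bp and at least 50% of its bp lay inside H2A.Z regions of the pkl-1 replicate 2 table. Of 5478 H3K27me3 regions, 3738 met the rule, which was 68.2% of the regions and 48.1% of their bp. Of the rest, 1111 were shorter than 8000 bp and less covered by H2A.Z, and 629 were 8000 bp or longer. Both marks were then followed in the tables of pkl-1, clf-28 and pie1-5 through the region with the largest overlap.

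H3K27me3 is placed by Polycomb repressive complex 2 and marks genes kept silent until a tissue, a season or a signal calls for them. CLF is a methyltransferase subunit of that complex. H2A.Z is a variant of histone H2A that the SWR1 complex, with PIE1 as its ATPase, places at the starts of active genes and along the bodies of many inducible, weakly transcribed genes. PKL is a CHD3-type chromatin remodeler required for normal H3K27me3 at many genes.

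All plants were 3-week-old shoots grown in soil with 16 h of light, either WT or carrying pkl-1, clf-28 or pie1-5, with no treatment. The labels give no ecotype and do not say how many plants a library pooled. RNA-seq had 3 libraries per genotype and ChIP-seq 2 per genotype and mark, which the series design text calls independent biological replicates. In the files, however, the WT column of all 6 H3K27me3 tables held the same library: where region ends were the same in both replicate tables of a mutant, all 3942 regions (pkl-1), 3730 (clf-28) and 2299 (pie1-5) had the same WT count. It was counted as 1 sample, so H3K27me3 compared 2 mutant libraries with 1 WT library, and the 3 mutants shared it. H2A.Z had 2 distinct WT libraries.

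RNA libraries held 21.6 to 33.1 M reads over genes, H3K27me3 libraries 3.17 to 19.2 M reads and H2A.Z libraries 7.62 to 19.3 M. The shallowest H3K27me3 library, clf-28 2, also stood apart in its table, with 8296 regions against 5478 to 5893 in the other 5. RNA of each targeted gene differed most from WT in the mutant named for it, upward for CLF and PKL and downward for PIE1. CLF RNA was higher in clf-28 (26.9 ± 6.32 CPM, counts per 1000000 reads, against 3.92 ± 1.80 in WT, SD, n = 3), with a log2 fold change of 2.77 and an edgeR adjusted p of 7.99e-05. PKL RNA was higher in pkl-1 (31.2 ± 3.49 against 16.8 ± 1.46 CPM, adjusted p 0.0247), and PIE1 RNA was 4.46 ± 1.07 CPM in pie1-5 against 8.34 ± 1.62 (adjusted p 0.0565). A mutant name below means the libraries so labelled. Summed CPM of 6 shoot markers was 8189 to 10730 in all libraries, and that of 6 root markers was 22.7 to 35.98 in WT, 51.6 to 57.2 in pkl-1, 32.7 to 43.6 in clf-28 and 57.4 to 71.2 in pie1-5. Summed CPM of 6 anther and pollen markers was 0.458 to 6.56, and no marker of the 3 lists was without reads.

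The covered regions were gene-sized. Their median length was 2400 bp (interquartile range 1400 to 4000 bp, from 200 to 7800 bp), and together they spanned 10.6 Mb. The median region lay to 90.9% inside H2A.Z regions, and 1712 regions (45.8%) lay there in full. Members made up 65.0% to 70.0% of the H3K27me3 regions on each of the 5 chromosomes. The 234 regions just inside the rule, at 50% to 55% coverage, had a median length of 3000 bp and a WT H3K27me3 level of 23.4 RPM per kb (reads per 1000000 library reads and per 1000 bp). The 81 regions just outside, at 45% to 50%, had 3800 bp and 26.99 RPM per kb.

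The double coverage recurred in tables that the rule did not use. Of the 3738 members, 84.2% were at least 50% covered by H2A.Z regions in pkl-1 1, 91.4% and 95.7% in clf-28 1 and 2, and 90.2% and 95.1% in pie1-5 1 and 2. Among the 1111 less covered short regions the same shares were 10.1%, 14.1%, 7.83%, 14.1% and 3.15%. At least 50% of the bp of 99.0% to 99.4% of members lay in H3K27me3 regions of the other 5 H3K27me3 tables. These tables share the WT libraries and are not independent of one another. Within WT the levels of the marks were weakly related over the 3738 members (Pearson r 0.122, Spearman rho 0.115, a description over regions of the same 2 libraries).

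At least 50% of the annotated length of 4460 genes lay inside members. Of the 27444 protein-coding genes, 3660 (13.3%) did, and 2071 members held 1 such gene, 990 held 2 or more and 677 held none. Genes of microRNAs were placed in members at 21.8% (71 of 326), transcribed pseudogenes at 17.2%, long noncoding RNAs at 11.1%, other pseudogenes at 2.17% and tRNA genes at 2.56%. Among symbol families of at least 40 genes, the shares were highest for transcription factor and enzyme families. They were 35.8% of MYB genes (43 of 120), 34.2% of NAC genes (27 of 79), 28.4% of WRKY genes (19 of 67), 27.6% of UGT glucosyltransferase genes (16 of 58) and 25.8% of CYP cytochrome P450 genes (59 of 229). Of the 112 genes named EMB, required for embryo development, 0 lay in members. As a check of the placing, 51 of 74 floral, flowering and meristem genes lay in H3K27me3 regions, against 12 and 15 after shifting the genes by 20000 bp to either side.

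Genes inside covered regions were more often without reads in WT shoots than genes outside H3K27me3 regions. No WT read fell on 49.3% of the 4194 genes present in the count table, compared with 22.2% of genes outside all H3K27me3 regions. Genes in less covered short regions had 50.2% and genes in wide regions 54.3%. The silent share did not order with H2A.Z level: with members split into 3 equal groups by WT H2A.Z, it was 46.5% in the lowest, 52.7% in the middle and 48.5% in the highest. Only 1373 of the 4194 genes passed the filter on low counts, 14 of them with no WT read and 20 with 1 to 3 WT reads. Genes that are silent in all 4 genotypes are thus missing from every RNA count below.

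H3K27me3 per library read was lower in pkl-1 than in WT over most covered regions. Over all members the summed level was 17.8 and 15.6 RPM per kb in pkl-1 1 and 2 against 28.2 in WT, and both libraries lay below it. The smallest p of an exact permutation test with 2 libraries against 1 is 0.333, which this contrast gave. In the edgeR quasi-likelihood fit of all regions, 1514 of 3662 members (41.3%) were called lower and 5 higher at adjusted p below 0.05, and the median log2 fold change was -0.74. Of all 5337 regions tested, 50.8% were called lower and 0.206% higher, with a median of -0.79, so the members' share lay below the background. The calls depended on the library total as the scale: scaled to TMM factors over regions, 0 members were lower and 5 higher, with a median of 0.06 against 0.01 over all regions. Scaled to reads in regions, 0 were lower and 26 higher. Reads inside regions made up 36.2% to 40.02% of the pkl-1 libraries and 65.2% to 65.6% of the WT library over the same tables, and their part in the result was not tested.

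The share called lower in pkl-1 rose with length. It was 7.85% of members under 1000 bp, 14.8% at 1000 to below 2000 bp, 44.3% at 2000 to below 4000 bp and 79.4% of longer members. Median fold changes ran from -0.54 to -0.82 over the same classes, and the median WT count from 184 to 2136 reads. Read number and size of fold change were thus both smaller in shorter members, and their parts in the shares called were not tested.

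Single members show the range in pkl-1. The largest called falls were at chr2:8791201-8791600, with 7.41 and 3.44 RPM per kb against 22.8 in WT (log2 fold change -2.02 ± 0.56 SE, adjusted p 0.00136), and at chr2:17764401-17765000 (-1.98 ± 0.52), neither of which holds a gene. Next came chr4:18497601-18498600 (-1.80 ± 0.47), which holds AT4G09945. The largest called rise, 2.12 ± 0.56, was at chr1:1058401-1060000. It had 22.3 and 10.8 RPM per kb in pkl-1 and 3.68 and 3.91 in WT over the region of each table, and it touches IAA10, an auxin response repressor, without holding it. Rises at chr1:12045201-12046000 (1.35 ± 0.47, over AT1G33220) and chr4:16000201-16001400 (1.29 ± 0.54, over AT4G33180) followed. Coordinates are TAIR10, as in the deposited tables.

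In clf-28 the H3K27me3 level of covered regions lay closer to WT than that of less covered short regions and of wide regions, and no region was called. The summed level over members was 21.98 RPM per kb in clf-28 1 and 15.2 in clf-28 2, against 28.3 in WT. The median log2 fold change was -0.78 in members, -1.23 in less covered short regions and -1.28 in wide regions. With edgeR 0 of 3653 members were called, and 0% of all 5441 regions; 0 members had an unadjusted p below 0.05, and DESeq2 called 0. Taken one library at a time, the member medians were -0.27 and -1.66, those of less covered regions -0.71 and -2.15, and those of wide regions -0.79 and -2.12. Members had the highest median of the 3 classes in both libraries. The median member level was 1.48 and 1.56 times that of less covered regions in clf-28 1 and 2, and 1.13 times in WT (exact permutation test, two-sided p 0.333, the smallest possible). Set against all other regions of each table, 1979 and 4600 in number, the ratio went the other way, at 1.18 and 0.467 against 2.975 in WT (p 0.333). In the clf-28 2 table those 4600 regions had a median of 16.9 RPM per kb in clf-28 2 and 4.78 in WT. Scaled to TMM factors over regions, the member median was 0.09 against -0.04 over all regions, and 15 members were called higher. Reads in regions made up 46.8% and 53.3% of the clf-28 libraries, and their part was not tested.

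In pie1-5 the 2 libraries disagreed. The summed member level was 19.4 and 25.2 RPM per kb against 27.2 in WT. Member medians were -0.60 in pie1-5 1 and -0.13 in pie1-5 2, whereas those of less covered regions were -0.14 and -0.45. The members thus lay below the less covered regions in the first library and above them in the second. Of 3522 members tested, 0 were called by edgeR (0.0193% of all 5180 regions) and 0 by DESeq2. At an unadjusted p below 0.05, 1 was higher and 11 lower, against 12 and 86 of all 5180 regions. The fitted median was -0.35 in members and -0.32 over all regions. Scaled to TMM factors over regions, the member median was -0.02 against 0.01 over all regions. Scaled to reads in regions, it was -0.08 against -0.05. Reads in regions made up 55.9% and 58.0% of the pie1-5 libraries and 66.1% to 67.75% of the WT library, and their part was not tested.

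**Figure D1:**
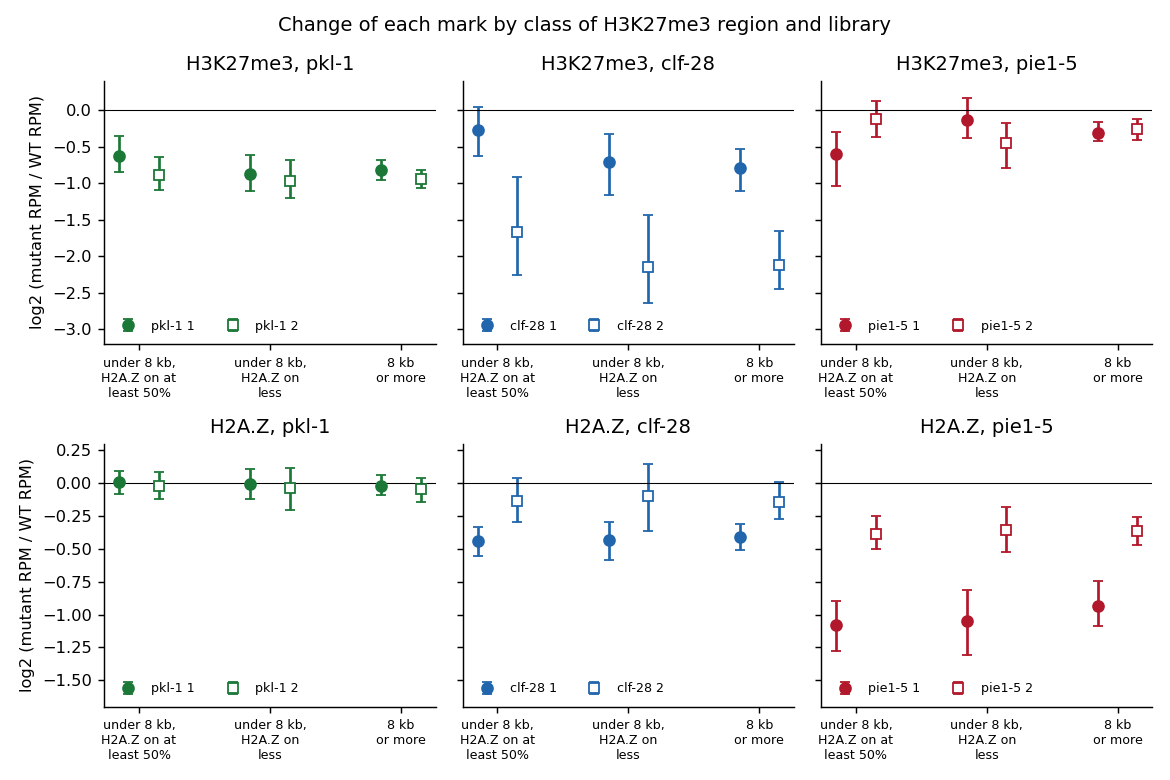
Median log2 ratio of mutant RPM to WT RPM (y axis) in each library for 3 classes of H3K27me3 region (x axis), with bars for the interquartile range over regions; filled circles are replicate 1 and open squares replicate 2. In clf-28 the members (-0.27 and -1.66) lie above both other classes in each library, and in pie1-5 the order turns between libraries; all values are relative to library totals.

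The H3K27me3 ratio to WT went with H2A.Z coverage, also at matched length. Among regions of 2000 to below 4000 bp, the median log2 ratio in clf-28 1 went from -0.90 in 116 regions without H2A.Z to -0.17 in 524 fully covered regions. In clf-28 2 it went from -2.39 to -1.61, in pkl-1 1 from -0.96 to -0.58, in pkl-1 2 from -0.97 to -0.88 and in pie1-5 2 from -0.62 to -0.09. The remaining library, pie1-5 1, ran the other way, from 0.08 to -0.70. Fully covered regions differed from uncovered ones in these same directions at 1000 to below 2000 bp and at 4000 to below 8000 bp. In the longest class, for example, clf-28 1 went from -1.07 to -0.31 and pie1-5 1 from 0.09 to -0.60. Intermediate coverage mostly gave intermediate values, with an exception at pkl-1 2, where partial coverage below 50% gave -1.02. All 6 series divide by the same WT library, so its own profile over coverage is part of each, and that part was not tested.

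**Figure D2:**
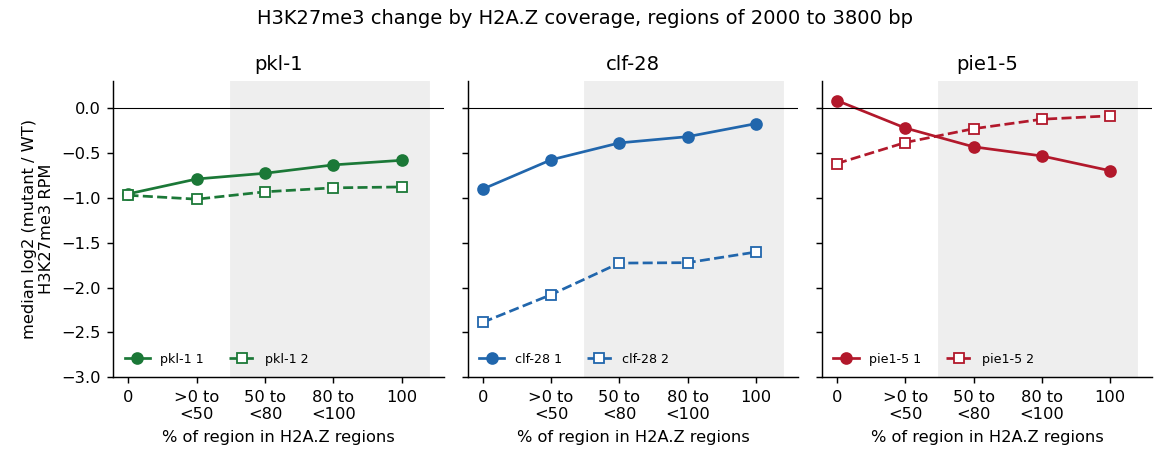
Median log2 ratio of mutant to WT H3K27me3 RPM (y axis) against the share of the region inside H2A.Z regions of pkl-1 2 (x axis, %), for regions of 2000 to 3800 bp; 1 line per library, and grey marks the coverage of members. Every line ends higher than it starts except that of pie1-5 1, which falls from 0.08 to -0.70, and that of pkl-1 2 first dips to -1.02.

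Per library read, summed H2A.Z levels at the covered regions overlapped WT in pkl-1 and lay below WT in pie1-5. In pkl-1 1 and 2 the summed member level was 17.9 and 17.64 RPM per kb, against 17.8 and 17.7 in WT 1 and 2, and the groups overlapped. The fitted median log2 fold change was 0.00. With edgeR 0 of 3114 members were called, against 0.0101% of all 9861 regions. At an unadjusted p below 0.05, 43 were higher and 62 lower, against 158 and 194 of all 9861 regions. DESeq2 called 2 members and 13 of all regions.

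In clf-28 the summed H2A.Z level of members was 13.4 and 16.7 RPM per kb, against 18.1 and 17.9 in WT. Both mutant libraries lay below both WT libraries (exact p 0.333, the smallest possible). The fitted median was -0.28 in members and -0.27 over all regions. Scaled to TMM factors over regions the member median was -0.0039, and scaled to reads in regions it was -0.0368. With edgeR 0 of 3387 members were called (0% of all 14539 regions), and DESeq2 called 0 members. At an unadjusted p below 0.05, 2 members were higher and 433 lower, against 13 and 1681 of all 14539 regions.

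In pie1-5 the summed H2A.Z level of members was 8.71 and 14.1 RPM per kb, against 18.25 ± 0.0712 (SD, n = 2) in WT (exact p 0.333, the smallest possible). The fitted log2 fold change was below 0 in 99.6% of 3405 members, with a median of -0.69 against -0.73 over all regions. The libraries differed in size of effect, with medians of -1.08 in pie1-5 1 and -0.38 in pie1-5 2. With edgeR 0 members were called (0.0206% of all 14570 regions), and DESeq2 called 0 members. At an unadjusted p below 0.05, 0 members were higher and 353 lower, against 7 and 1866 of all 14570 regions. Without pie1-5 2, 3292 members were called lower, the lone pie1-5 library then being assumed to vary like WT. Scaled to TMM factors over regions the member median was 0.08, against 0.02 over all regions. Reads in H2A.Z regions made up 55.6% and 49.6% of the pie1-5 libraries and 64.2% to 64.3% of WT, and their part was not tested. Members and less covered regions had like medians in each library of every mutant, such as -1.08 and -1.05 in pie1-5 1.

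Fitted changes below 0 for both marks were frequent in clf-28 and pie1-5, relative to library totals. Of the members fitted for both, 85.8% of 3314 in clf-28, 86.3% of 3210 in pie1-5 and 49.0% of 3055 in pkl-1 had both log2 fold changes below 0. For each mark alone, the shares below 0 were near those of all regions. For H3K27me3 they were 88.7% of members and 89.6% of all regions in clf-28. In pie1-5 they were 86.6% and 84.9%, and in pkl-1 96.5% and 97%. For H2A.Z they were 93.7% and 88.8% in clf-28, 99.6% and 99.2% in pie1-5, and 49.7% and 49.8% in pkl-1. Across members, which share their libraries, the fold changes of the marks correlated with r 0.45 in clf-28, 0.29 in pkl-1 and 0.16 in pie1-5. These are descriptions over regions, and no member was called for both marks in any mutant.

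RNA of the genes inside covered regions changed in both directions. Of the 1373 tested, 36 (2.62%) rose and 84 (6.12%) fell in pkl-1, against 1.45% and 2.58% of all 20375 genes tested. In clf-28 27 (1.97%) rose and 50 (3.64%) fell, against 0.918% and 1.23%. In pie1-5 106 (7.72%) rose and 47 (3.42%) fell, against 3.8% and 3.56%. Median log2 fold changes of the tested genes were -0.07, -0.06 and 0.29, against 0.01, 0.00 and 0.01 over all genes. Because the filter kept genes that were high in at least some group, these counts describe the tested genes only. In whole shoots, fewer cells of a type and less RNA per cell cannot be told apart. Genes outside all H3K27me3 regions were called in pie1-5 at 3.36% higher and 3.47% lower, and genes in wide regions at 7.36% and 4.62%. Genes in less covered short regions were called there at 5.32% higher and 10.3% lower. In pkl-1 genes in less covered short regions were called at 2.84% higher and 8.51% lower, and genes in wide regions at 4.04% and 3.46%. In clf-28 these shares were 2.13% and 6.03%, and 3.61% and 2.89%.

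**Figure D3:**
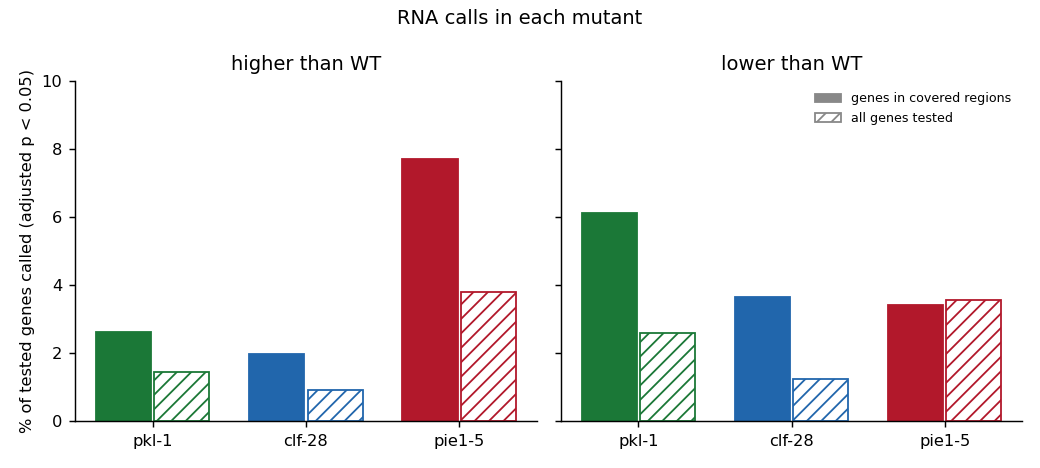
Share of tested genes called higher (left) and lower (right) than WT at edgeR adjusted p below 0.05 (y axis, %) in each mutant (x axis); filled bars are genes in covered regions (1373 genes), hatched bars all 20375 genes. The tallest bar is the 7.72% of member genes that rose in pie1-5, and falls exceed rises in pkl-1 and clf-28.

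The 3 comparisons share their WT libraries. Counts of calls were sensitive to single libraries: the pkl-1 total of 120 fell to 66 without WT 3 and to 67, 74 and 70 without pkl-1 1, 2 and 3. The clf-28 total of 77 fell to 44, 34 and 28 without clf-28 1, 2 and 3 and to 44 and 35 without WT 2 and WT 3. The pie1-5 total of 153 fell to 99 and 79 without WT 1 and WT 3. Of 68 calls of named genes, 33 held under every alternative.

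At covered regions the H3K27me3 change ordered with the RNA call in clf-28 and pkl-1. In clf-28 the median H3K27me3 log2 fold change was -1.02 at the 27 members whose genes rose, -0.72 at members whose genes were not called and -0.36 at the 48 members whose genes fell. The order was the same in pkl-1 (-0.84, -0.74 and -0.61). In pie1-5 the medians were -0.46, -0.35 and -0.34, nearly level between not called and falling genes, and its libraries disagreed on H3K27me3. Members with rising genes were longer in clf-28, at a median of 4000 bp against 2000 bp for those with falling genes, and longer members had lower H3K27me3 fold changes there. In pie1-5 members with rising genes were shorter, at 2000 bp against 3200 bp. Shorter members had lower H3K27me3 fold changes there, with medians of -0.46 under 1000 bp and -0.33 at 4000 bp or longer. In pkl-1 the lengths were 2300 and 2400 bp. The part of length in these orders was not tested. H2A.Z medians in the same order of calls were -0.35, -0.26 and -0.16 in clf-28 and -0.03, 0.00 and 0.03 in pkl-1. In pie1-5 they did not order with the call, at -0.63, -0.65 and -0.56.

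**Figure D4:**
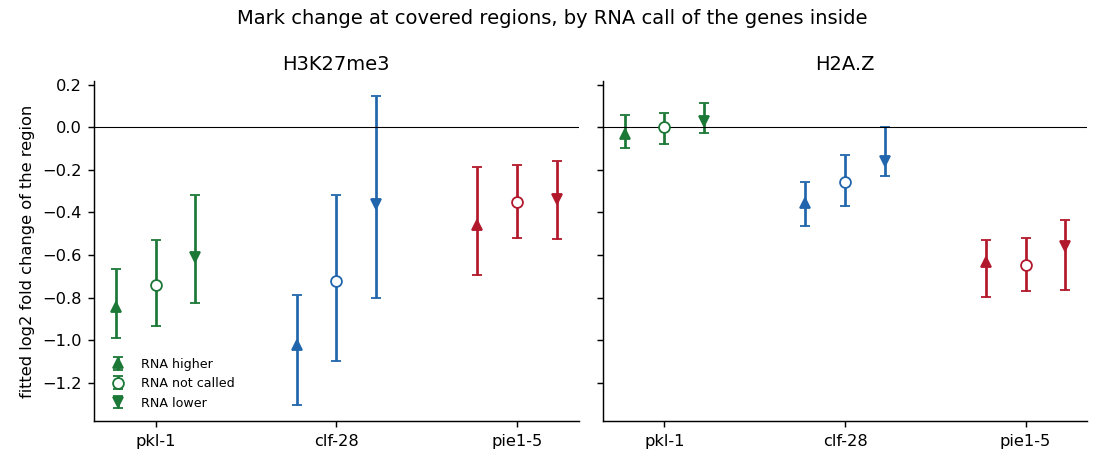
Fitted log2 fold change of H3K27me3 (left) and H2A.Z (right) at covered regions (y axis, relative to library totals), grouped in each mutant (x axis) by whether the RNA of the genes inside was called higher, not called or called lower; symbols are medians and bars interquartile ranges over regions. In clf-28 the H3K27me3 medians are -1.02, -0.72 and -0.36.

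The floral gene SEP3 and the flowering gene FT were among the 5 largest called rises in clf-28 with mean log2 CPM of at least 1. SEP3 (AT1G24260), a MADS-box factor of floral organ identity, lies in the member chr1:8592001-8598200. Its RNA was 0.26, 0.37 and 0.40 CPM in WT and 25.2, 34.2 and 19.8 in clf-28, a 76.0-fold rise (log2 fold change 6.25 ± 0.56 SE, adjusted p 3.65e-05). It also rose 10.04-fold in pie1-5, to 0.90, 5.35 and 4.19 CPM (adjusted p 0.00214), and was 0.22, 0.53 and 0.65 CPM in pkl-1 (adjusted p 0.779). No mutant library of clf-28 or pie1-5 overlapped WT. H3K27me3 over the member was 57.6 RPM per kb in WT and 31.4 and 26.97 in pkl-1, a called fall (adjusted p 1.91e-06). It was 19.1 and 6.20 in clf-28 and 30.0 and 47.0 in pie1-5, neither called. The fitted H3K27me3 log2 fold change at the SEP3 member in pkl-1 was -0.98. Members of 4000 bp or longer had a median of -0.82 in pkl-1, and 79.4% of them were called lower. H2A.Z there was 10.04 and 10.4 RPM per kb in clf-28 against 18.5 and 17.4 in WT.

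FT (AT1G65480), the mobile flowering signal, lies in chr1:24332201-24338600. Its RNA was 0.86, 0.71 and 1.19 CPM in WT and rose 8.82-fold in clf-28, to 5.95, 10.8 and 7.50 CPM (adjusted p 0.00243). In pkl-1 it fell 5.52-fold, to 0.18, 0.16 and 0.15 CPM (adjusted p 0.0324), a call that was lost without any pkl-1 library or WT 1 or WT 3. H3K27me3 at FT was also lower in pkl-1, at 13.9 and 14.0 RPM per kb against 26.2 (adjusted p 0.00144), and was 13.5 and 5.66 in clf-28. Lower H3K27me3 per library read thus stood beside lower FT RNA in pkl-1 and beside higher FT RNA in clf-28. The fitted log2 fold changes at FT were -0.92 in pkl-1 and -1.45 in clf-28. Members of 4000 bp or longer had medians of -0.82 and -1.02, and in pkl-1 79.4% of them were called lower. With TMM factors over regions, 0 members were called lower in pkl-1.

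Of 22 listed floral identity genes 10 lay in members, and 5 of them were tested. Besides SEP3, SHP2, a carpel and fruit MADS-box factor, rose 11.5-fold in clf-28 (adjusted p 0.0402), and AGL24 fell 2.55-fold in pkl-1 and 2.97-fold in pie1-5 (adjusted p 0.032 and 0.0109). SHP2 had 0.30, 0.28 and 0.22 CPM in WT and 3.17, 2.98 and 3.23 in clf-28. It passed the filter on low counts mainly through clf-28, where it was high, so its adjusted p is not separate support. SEP2, below the filter, had 0 reads in WT and 63 in pie1-5, all in pie1-5 2 and 3, at least 18.5-fold higher than a floor of 3 reads over the WT group. Of 28 flowering-time genes 8 lay in members and 7 were tested. SPL4, a promoter of flowering that overlaps MIR156i, rose 2.49-fold in clf-28 (adjusted p 0.0478). The SHP2 and SPL4 calls were lost without any clf-28 library, and the pkl-1 call of AGL24 without pkl-1 1, pkl-1 2, WT 1 or WT 2. H3K27me3 was called lower in pkl-1 at 8 of the 10 members with floral genes and at 7 of the 8 with flowering-time genes, against 41.3% of all members, 79.4% of members of 4000 bp or longer and 50.8% of all regions.

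MAF4 and MAF5, neighbouring MADS-box genes related to the flowering repressor FLC, fell in pie1-5. MAF5 (AT5G65080, chr5:25997601-26001400) had 7.88, 4.60 and 1.19 CPM in WT and 0.12, 0 and 0.31 in pie1-5, a 31.5-fold fall (adjusted p 0.0028). MAF4 (AT5G65070, chr5:25992001-25995200) had 1.99, 1.39 and 0.31 CPM in WT and 0.06, 0.03 and 0.07 in pie1-5, a 21.3-fold fall (adjusted p 0.00193). Neither pie1-5 group overlapped WT. The fold of MAF5 ran from 20.2 to 68.0 when 1 library was left out, with the largest moves without pie1-5 3 and without WT 1. H2A.Z at the MAF4 member was 7.40 and 12.3 RPM per kb in pie1-5 and 16.0 and 17.57 in WT, not called. The genes of this cluster are close copies, and how reads that fit several of them were counted is not given in the sources used here.

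Defence genes fell in pkl-1 and clf-28. All 7 salicylic acid defence genes in members, of 22 matched, were tested, and 4 fell in both mutants. BGL2, also known as PR2, a secreted glucanase induced by pathogens, had 66.1, 88.6 and 43.6 CPM in WT, 6.54, 3.96 and 5.92 in pkl-1 and 7.76, 5.87 and 1.63 in clf-28. These were falls of 12.1-fold and 13.1-fold (adjusted p 0.00143 and 0.00215). CRK4, a cysteine-rich receptor-like kinase, fell 12.3-fold in pkl-1 and 29.5-fold in clf-28 (adjusted p 0.00167 and 0.00069), and its pkl-1 fall was 22.1-fold without pkl-1 2. The pathogenesis-related gene PR5 fell 7.85-fold and 2.70-fold, and the factor WRKY54 fell by 2.42 and 2.14 on the log2 scale, the latter a call lost without clf-28 2, clf-28 3 or WT 3. In pie1-5 PR5 rose 2.26-fold (adjusted p 0.0452), and BGL2 was 47.4, 170.1 and 235.7 CPM (adjusted p 0.166). The clf-28 and pie1-5 calls of PR5 were lost without several single libraries, with largest adjusted p of 0.192 and 0.178.

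NIMIN1, which binds the salicylic acid receptor NPR1, had 2 reads in the WT group and 485 in pie1-5, at 4.92, 6.05 and 4.67 CPM. That is a ratio of 214 (95% counting interval 58.8 to 1769, counting error only), with an edgeR adjusted p of 0.000528. NIMIN1 passed the filter on low counts mainly through pie1-5, where it was high, so this adjusted p is not separate support. Its member, chr1:498001-498600, is 600 bp long and lies wholly in H2A.Z. H3K27me3 there was 6.76 and 23.6 RPM per kb in pie1-5 and 16.7 in WT, so the libraries lay on either side of WT. The fitted RNA fold ran from 115.0 to 1218 when 1 library was left out, with the largest moves without WT 2 and WT 3.

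RNA of MC2, AT5G10760 and TAT3 fell in both pkl-1 and clf-28. H3K27me3 was not called at their regions in pkl-1, and in clf-28 it was called at 0 of all 5441 regions. Members of 1000 to below 2000 bp, such as those of MC2 and AT5G10760, were called lower in pkl-1 at 14.8%. The lack of a call thus does not show an unchanged mark. MC2, a metacaspase gene, lies in chr4:12888601-12890200. Its RNA was 11.96, 9.82 and 11.8 CPM in WT, 0.53, 1.07 and 0.76 in pkl-1, 1.52, 1.94 and 1.09 in clf-28 and 2.12, 3.22 and 2.69 in pie1-5. These are falls of 13.9-fold, 7.46-fold and 4.18-fold (adjusted p 6.7e-06, 0.000104 and 0.000637), with no overlap with WT. H3K27me3 at MC2 was 21.1 RPM per kb in WT, 16.1 and 23.6 in pkl-1 and 23.3 and 41.9 in clf-28.

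AT5G10760 (chr5:3400601-3402000) had 14.1, 14.0 and 8.39 CPM in WT and fell 18.3-fold in pkl-1 and 10.7-fold in clf-28 (adjusted p 0.000248 and 0.00159). In pie1-5 it was 11.1, 39.6 and 62.1 CPM, a 3.09-fold rise (adjusted p 0.028) that was lost in 7 of 11 alternatives. TAT3, a tyrosine aminotransferase induced by jasmonate, fell 9.98-fold in pkl-1 and 11.8-fold in clf-28 (adjusted p 0.000625 and 0.000708). H3K27me3 at TAT3 was 41.2 and 34.5 RPM per kb in clf-28 and 24.2 and 29.1 in pkl-1 (adjusted p 0.0898) against 41.3 in WT. The fitted log2 fold change there in pkl-1 was -0.64, near the member median of -0.74.

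Among called genes with a mean log2 CPM of at least 1, the largest fall in pkl-1 was that of PCR1, a membrane protein of cadmium resistance, in chr1:5132401-5135000. It had 4.95, 8.46 and 5.49 CPM in WT and 0, 0.19 and 0 in pkl-1, an 81.7-fold fall (adjusted p 0.000293). All 6 pkl-1 reads were in pkl-1 2, and the fitted fold without that library, 1438, rests on 0 reads and is no measurement. AT5G06570 fell 25.7-fold (adjusted p 0.00166) and AT4G03450 14.1-fold (adjusted p 0.00163) in pkl-1. Without WT 3 the fall of AT5G06570 was 14.2-fold, and without pkl-1 2 that of AT4G03450 was 56.4-fold. H3K27me3 at PCR1 was 13.8 and 9.63 RPM per kb in pkl-1 against 23.1 in WT.

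AT4G02825 (chr4:2180201-2182200) gave the largest rise in pkl-1 under the same limit. Its RNA was 10.5, 8.49 and 7.69 CPM in WT and 224.7, 186.0 and 209.9 in pkl-1, a 23.2-fold rise (log2 fold change 4.54 ± 0.19 SE, adjusted p 1.7e-09). It also rose 1.83-fold in clf-28 (adjusted p 0.013), a call lost without clf-28 2, WT 2 or WT 3, and fell 2.27-fold in pie1-5 (adjusted p 0.00114). H3K27me3 was 5.72 and 6.70 RPM per kb in pkl-1 against 14.7 (adjusted p 0.0223), and H2A.Z 8.80 and 10.5 against 17.0 and 16.0, not called. In clf-28 H3K27me3 was 8.08 and 8.35 RPM per kb and in pie1-5 7.83 and 5.68, also below WT and not called. H2A.Z was 10.55 and 10.97 in clf-28 and 6.89 and 11.4 in pie1-5, also below WT and not called. Lower H3K27me3 per library read thus stood beside higher RNA in pkl-1 and clf-28 and beside lower RNA in pie1-5. The fitted H3K27me3 log2 fold changes there were -1.25, -0.84 and -1.12 in pkl-1, clf-28 and pie1-5. Medians over members were -0.74, -0.78 and -0.35.

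CAD2, named for cinnamyl alcohol dehydrogenase, rose 13.7-fold in pkl-1 (adjusted p 0.00759), but it overlaps the egg cell gene EC1.2, and reads of the pair cannot be told apart. FTM1, named for the floral transition, rose 6.16-fold, AT1G78450 4.70-fold and UPI, a protease inhibitor, 4.23-fold in pkl-1 (adjusted p 0.0228, 0.000893 and 0.0386). The FTM1 and UPI calls were lost without pkl-1 1 or 2 or any WT library.

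**Figure D5:**
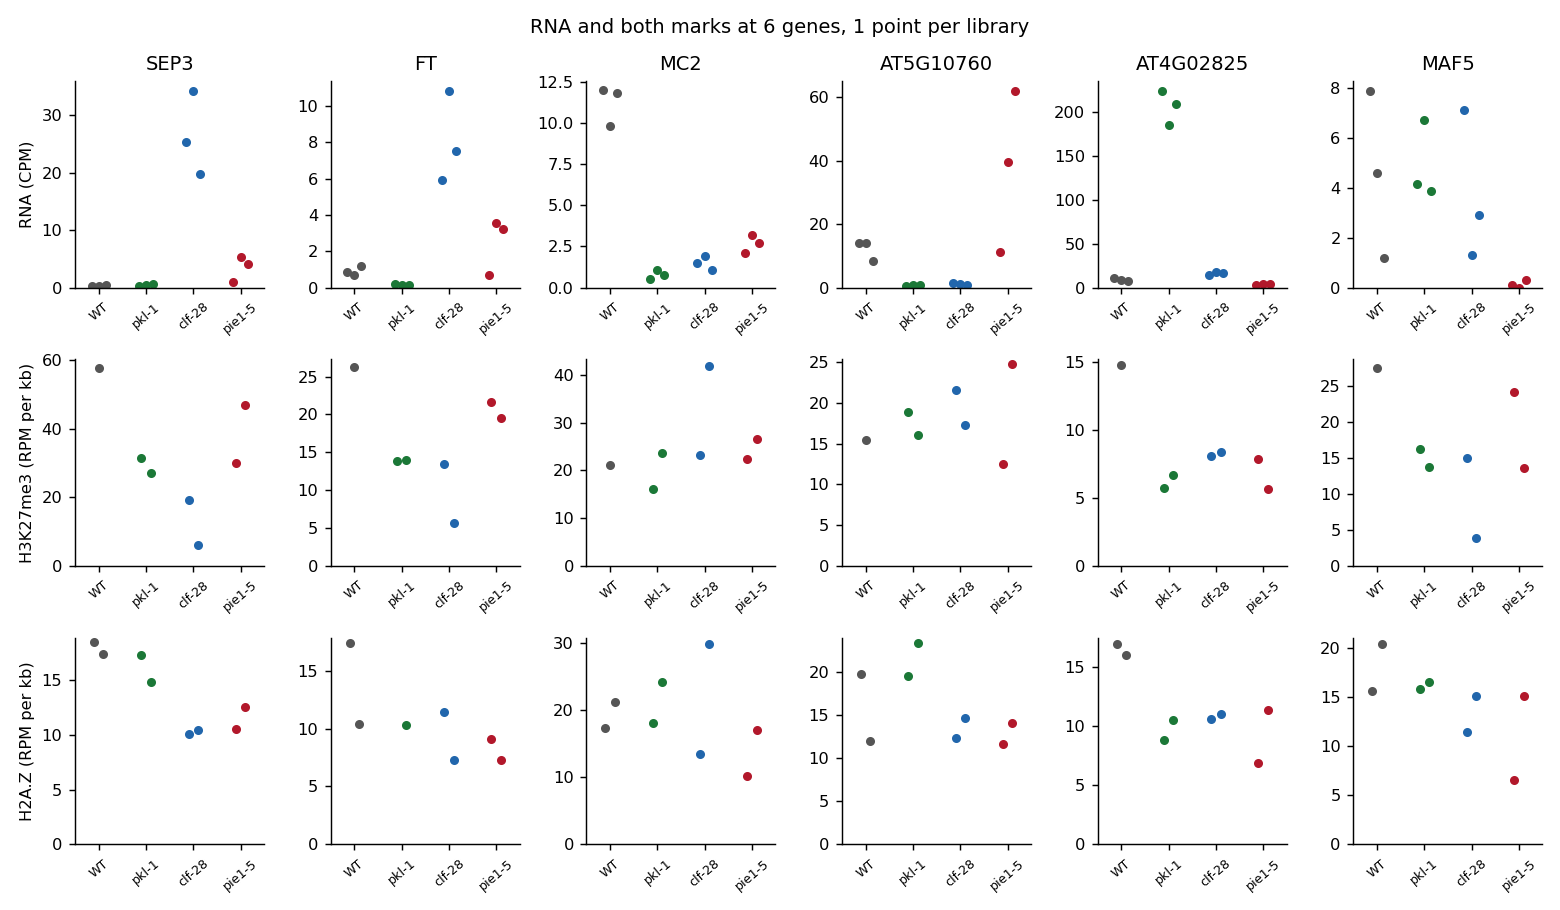
RNA (top, CPM), H3K27me3 (middle, RPM per kb) and H2A.Z (bottom, RPM per kb) at 6 genes in covered regions; each point is 1 library, by genotype on the x axis, with a single WT library for H3K27me3. Mutant points of the marks are levels over the region of that mutant replicate. WT points are levels over the regions of pkl-1 2 for H3K27me3 and of clf-28 1 and 2 for H2A.Z. Where region ends differ, mutant and WT points are not directly comparable. At AT5G10760, H2A.Z in pkl-1 2 was 23.4 and WT over the same region 20.2, but the WT 2 point drawn is 12.03. SEP3 reaches 34.2 CPM in clf-28 against at most 0.40 in WT, while MC2 falls in all 3 mutants; H2A.Z points of FT are missing for pkl-1 1, whose table has no region there.

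Other rises in clf-28 were CSLG2, a cellulose synthase-like gene (10.7-fold, adjusted p 0.01), the NAC factor NAC047 (4.37-fold, adjusted p 0.0143) and AT3G55710 (3.81-fold, adjusted p 0.00583). NAC047 had 0.86, 1.67 and 0.88 CPM in WT and 4.27, 4.28 and 6.49 in clf-28. H3K27me3 at its member, chr3:1061401-1063000, was 11.7 and 5.12 RPM per kb in clf-28 against 24.2. The rise of CSLG2 was 22.2-fold without WT 2, its call was lost without clf-28 3 or WT 3, and that of NAC047 without clf-28 3, WT 1 or WT 3.

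Further genes named by fold size changed in pie1-5. DIN11, a dioxygenase induced in the dark, had 52.8, 60.8 and 69.0 CPM in WT and 7.75, 10.2 and 6.82 in pie1-5, a 7.36-fold fall (adjusted p 7.87e-06). LSU1, induced by low sulfur, had 1.01, 0.56 and 0.44 CPM in WT and 25.7, 10.9 and 7.26 in pie1-5, a 21.7-fold rise (adjusted p 0.000171) that was 13.5-fold without pie1-5 1. AT3G61920 rose 10.5-fold (adjusted p 0.00212), or 16.7-fold without WT 3. CYP94B3, which hydroxylates jasmonoyl-isoleucine, fell 9.89-fold in pie1-5 and 8.83-fold in pkl-1 (adjusted p 0.0191 and 0.0331), with WT at 14.8, 24.7 and 75.8 CPM. AT5G06570 and AT2G38240 fell 6.82-fold and 6.35-fold (adjusted p 0.0165 and 0.0141). The pie1-5 calls of these 3 falls were lost without WT 3, and that of CYP94B3 also without pie1-5 2. Without WT 3 their fitted folds in pie1-5 were 5.08, 3.76 and 3.89, and that of CYP94B3 in pkl-1 was 4.55, none of them called. Without pie1-5 3, CYP94B3 fell 23.5-fold and AT2G38240 11.1-fold, and without pkl-1 1 the pkl-1 fall of CYP94B3 was 17.5-fold.

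Rises of ELIP2, an early light-induced protein, and AMT1;2, an ammonium transporter, rested on 1 library. ELIP2 had 91.5 CPM in pie1-5 1 and 1.40 and 0.89 in the other two, against 1.5, 2.63 and 1.85 in WT. Its log2 fold change of 3.96 (adjusted p 0.0461) became -0.80 without pie1-5 1 (adjusted p 0.406), and the call was also lost without any WT library, with the replicate number as a block and in the fit of pie1-5 and WT alone, while DESeq2 gave no adjusted p. AMT1;2 had 83.1, 7.58 and 3.17 CPM, and its call was lost without pie1-5 1 (fold 2.26), without any WT library and in the fit of pie1-5 and WT alone.

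The gene lists place these genes among their pathways. Of 432 symbols in 20 lists, 423 matched 419 genes, and 100 genes lay in members, of which 66 were tested and 25 called in any mutant. None of the 20 leaf polarity, 13 heat shock or 14 SWR1, H2A.Z and CHD genes lay in a member, and of 18 Polycomb genes 2 did, MEA and FIS2, which were not tested. Of 12 embryo, seed and imprinted genes in members only 3 passed the filter. AGL38, also known as PHE2, an imprinted MADS-box gene, had 0 reads in WT, 124 in pkl-1, 30 in clf-28 and 21 in pie1-5, at least 41.9-fold, 9.24-fold and 6.17-fold higher than a floor of 3 reads over the WT group. Its edgeR adjusted p were 0.0033, 0.0428 and 0.0335. With 0 WT reads, AGL38 passed the filter through mutant libraries, mainly those of pkl-1 at 2.78, 0.97 and 1.15 CPM. These adjusted p are thus not separate support for its rises. The clf-28 call was lost without any single library and the pie1-5 call without pie1-5 3 or any WT library. A close copy of AGL38 exists, so its reads are uncertain.

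Among the other lists, calls were few. Both jasmonate genes in members, LOX4 and CYP94B3, fell in pkl-1, and CYP94B3 in pie1-5. Of 4 cold and dehydration genes, RAB18, which overlaps PLP3b, fell in pkl-1 and LTI65, also called RD29B, rose 9.71-fold in pie1-5 (adjusted p 0.0159). Of the flavonoid genes, 2 of 4 were tested: DFR, a reductase of anthocyanin synthesis, rose 3.53-fold in pkl-1 (adjusted p 0.0159, 6.61-fold without WT 2), and TT4, the chalcone synthase that overlaps AT5G13940, rose by 1.63 on the log2 scale in pie1-5 (adjusted p 0.0138), or 1.87-fold without pie1-5 1. The stem cell factor WOX4 rose 2.42-fold in pie1-5 (adjusted p 0.039). Of 4 NAC factors tested, NAC3 fell in pkl-1 beside the rise of NAC047 in clf-28. The nitrate reductase NIA1 fell 2.13-fold in clf-28 and 2.64-fold in pie1-5 (adjusted p 0.0338 and 0.00428). Of 11 MYB and bHLH factors tested 1, MYB34, fell in clf-28, and of 6 WRKY factors 1, WRKY55, fell in pkl-1 (3 reads against 84 in WT). With edgeR, 0 of 2 ethylene response, 4 auxin, 2 gibberellin and 2 cytokinin and strigolactone genes tested were called in any mutant. Except for NIA1 in pie1-5, each call of this paragraph was lost when some single library was left out.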

How the data were processed

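RNA-seq with 3 libraries per genotype and ChIP-seq with 2 per genotype and mark came from shoots of WT and of the mutants clf-28, pie1-5 and pkl-1. The submitters' processing notes list SICER, deepTools, bedtools, Bowtie2, Trimmomatic and edgeR, with build TAIR10; their versions and settings, and the program that counted reads, are not given in the sources. The authors deposited raw read counts for each gene. For each ChIP replicate they deposited a table of regions on 200 bp windows, with columns for 1 mutant library and for WT. Per the file headers each region table holds read counts and normalised counts, which were RPM: in every library the deposited count divided by the deposited RPM value was 1 constant, from which the library total was recovered. RPM divides by all reads, so more background reads lower it at every region. The authors' own fold changes, p-values and region calls were not used, nor were anti-H3 and input libraries, so no value is relative to input.

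Regions of the 2 replicate tables of a mutant and mark were paired as best matches both ways overlapping by at least 50% of the shorter, and their counts were fitted over all pairs with edgeR 4.0.16 (R 4.3.3, glmQLFit and glmQLFTest), library totals and a length offset. Gene counts were fitted over all 12 libraries with TMM factors and the default filter on low counts. P-values were adjusted by Benjamini-Hochberg across every feature tested, and 0.05 was the threshold. SE were derived from the F statistic. Per-library ratios used a pseudocount of 0.5 reads, and summed levels were compared by exact permutation tests. With 2 libraries against the single H3K27me3 WT library, that library is assumed to vary like the mutants. DESeq2 1.42.0 and other alternatives are in the closing section. Each fit was tested on simulated counts.

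Genes were placed with a RefSeq table of assembly TAIR10.1, used for names and placing only, none of whose coordinates are printed. A gene was in a region when at least 50% of its length was inside. The table gives no strand, and no sequence was available to print. The cDNA kit does not mark strand, so overlapping genes cannot be told apart, and intervals and floors cover counting error only. ChIP and RNA depth set the precision of each call.

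Members and gene lists were chosen with earlier results of these data known. Named by rule were, per mutant, the 5 largest called RNA rises and falls with mean log2 CPM of at least 1, the 3 largest called rises and falls of a mark with at least 100 reads, and up to 4 genes per list by smallest adjusted p. SPL4, AGL38, WRKY54, WRKY55, SHP2, AGL24, MYB34 and MAF4 were added after their values were seen.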

Additional observations from a re-analysis of the deposited data

How the results depend on the processing

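The direction of the H3K27me3 and H2A.Z falls depended on the scale. With TMM factors over regions, 5 members were called for H3K27me3 in pkl-1 (1519 on library totals) and 15 in clf-28 (0 on library totals), and member medians were 0.0611 for H3K27me3 in pkl-1 and 0.0768 for H2A.Z in pie1-5. With reads in all regions as library size, chosen after seeing the data, 26 members were called for H3K27me3 in pkl-1 and the median was 0.0493; on that scale the log2 ratio of the summed member level was 0.0194 in pkl-1 (-0.76 on library totals) and -0.14 in clf-28 (-0.61 on library totals). The cause was not tested. DESeq2 called 1488 members for H3K27me3 in pkl-1 and 2 for H2A.Z in pkl-1. The 80% coverage rule left 2380 members, and 745 of 2320 tested were called for H3K27me3 in pkl-1; the cause of the lower share was not tested. The limit of 4000 bp gave 769 of 2718, and it leaves out the longer members, 79.4% of which were called lower. Leaving out 1 library gave 0 H2A.Z calls in pkl-1 and clf-28 and 0 to 3292 in pie1-5, the highest without pie1-5 2. No leave-one-out test was possible for H3K27me3 with 1 WT library.

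RNA calls of member genes numbered 120, 77 and 153 in pkl-1, clf-28 and pie1-5. They were 194, 135 and 231 with DESeq2 and 241, 171 and 263 without the filter. Fits of only 1 mutant with WT gave 123 in clf-28 and 75 in pie1-5. The 80% rule gave 64, 46 and 96, and genes wholly inside members, chosen after seeing the data, 41, 25 and 51. Leaving out 1 library gave 66 to 98, 28 to 61 and 79 to 205. The log2 fold change of ELIP2 in pie1-5 ran from -0.80, without pie1-5 1, to 4.53. Gene start inside a member was not run, since the reference table gives no strand.

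With the replicate number as a block, H2A.Z calls were 25 in pkl-1 (15 higher and 10 lower), 2 in clf-28 and 0 in pie1-5, and RNA calls 113, 63 and 150. Deviations of same-numbered H2A.Z libraries correlated at 0.667, 0.365 and 0.302, over 2 pairs per mutant. Same-numbered mutant and WT libraries were counted over the same region ends, which often differed between the replicates. The part of these shared ends in the correlations was not tested, so the correlations do not show pairing. The labels do not say that a number marks a shared batch. Deviations of same-numbered RNA libraries correlated at -0.036 to 0.083. The fits without the block were therefore kept. No paired analysis was possible for H3K27me3 because its WT columns hold 1 library. Median WT reads per member ran from 184 under 1000 bp to 2136 at 4000 bp or longer, and the part of depth in the calls was not tested.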
